A study of Mus musculus with 20 samples.

Results

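N6-methyladenosine (m6A) is a methyl mark on adenosines inside messenger RNA. It is placed by a nuclear writer complex whose catalytic subunit is Mettl3, held on RNA by Mettl14, Wtap and further adaptors, bound by reader proteins such as the Ythdf and Ythdc families, and removed by Alkbh5 and Fto. The mark lies mostly at short adenosine-centred motifs such as GGAC, and it is known for its effects on mRNA decay, splicing and translation. Double-positive (DP) thymocytes, which carry both CD4 and CD8, are an intermediate stage of T cell development, in which the alpha chain of the antigen receptor is rearranged.

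Described here are all peaks of the authors' deposited table that compares m6A between DP thymocytes of 2 genotypes. The table has 13455 rows. Repeats of 1 position, on 1 strand and with identical blocks, were dropped, which removed 5 rows and left 13450 peaks, out of 25992 peaks in the series. The DP libraries came from wild-type C57BL/6 mice, labelled WT, and from mice labelled Mettl3fl/flCD4-cre, in which Cre driven by Cd4 sequences acts in cells that have begun to express CD4. Both genotypes were 6 to 8 weeks old, and DP cells were sorted as 7AAD-, CD1d tetramer-, CD4+ and CD8+. Each genotype gave 2 input and 2 m6A immunoprecipitation libraries, 8 libraries in all of the 20 in the series. The sources used here do not say whether cells of several mice were pooled. The RNA was poly(A)-selected and fragmented to about 150 nt. The other cells of the series, invariant natural killer T (iNKT) cells, appear below only where they show how the DP peaks differ.

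The authors' deposited table holds 1 set of values per peak and none per library, so no value here has a replicate spread and the depth of the libraries is unknown. For each peak it gives the enrichment of the immunoprecipitate over its input (a linear ratio), the log2 fold change of methylation between genotypes, and a false discovery rate (FDR) for that change. A peak passed at an FDR of at most 0.05. The sign of the change is not stated in the file. Negative values were read as likely lower in Mettl3-deleted cells, because a second deposited file, a list of 4336 gene symbols, holds genes with a negative peak and because the deletion removes a writer subunit. "Lower" and "higher" are used in that likely sense throughout, and both words would change places if the sign were turned. Every gene of the list had a negative peak, and the list lacked 1 of the 4337 genes with a negative peak. Only 95 of the listed symbols, 2.19%, had a lower peak that passed. Mettl3 itself had no peak, so its deletion could not be checked in this table.

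At this threshold 165 peaks passed, 1.23% of all peaks; 100 were lower, 0.743%, and 65 were higher, 0.483%. The FDR nearest the threshold was 0.0490 on the inside and 0.0513 on the outside, and at an FDR of 0.1 the count was 279, or 2.07%. Over all peaks the median log2 fold change was 0, with quartiles of -0.391 and 0.416, and 149 peaks had a change of exactly 0. At least 2-fold changes were common and seldom passed. They were found for 2512 peaks, 18.7% of the table, of which 33 passed, 1.31% against the 1.23% of all peaks. The balance was the other way round among these, with 10 lower and 23 higher, and also among peaks of a single exon block, with 18 lower and 48 higher. At least 4-fold changes were found for 538 peaks, of which 8 passed.

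The gene named by the authors' annotation was compared with gene spans of RefSeq on GRCm38.p6, the assembly that mm10 denotes. For 10176 peaks, 75.7%, the named gene lay at the peak on the same strand. This held for 93 of the 100 lower peaks and for 40 of the 65 higher peaks. The difference matters for reading the lists below. Among the higher peaks, the one named Ldhd lay in Znrf1 and the one named Rnu12 lay in Cyb5r3. Among the lower peaks, the one named Ppard lay in Def6, and the one named Eif2s2 lay in Raly, a gene of an hnRNP-like RNA-binding protein. Small nucleolar RNA names can also stand for their host: the higher peak named Snord82 lay in Ncl, the gene of nucleolin, and the lower one named Snord57 in Nop56.

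The labelled cell type was checked against its markers. Of 16 marker genes of DP thymocytes, 12 had a peak, among them Cd4, Cd8a, Cd8b1, Rag1, Arpp21 and Themis, with 43 peaks in total. Of 20 markers of B cells, myeloid cells, stroma and other thymic cells, 4 had a peak, with 7 peaks in total: Cd79b, Itgam and Pecam1 at the genes themselves, and a peak named Csf1r that lay in the neighbouring gene Pdgfrb. A peak shows that a transcript was present in the pooled libraries and says nothing of its level, and neither group of markers could be summed per library.

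Short sequences around the motif could be read only near gene starts, because the reference used here holds promoters and the first 50 bases after each start, and no genome. Those 50 bases lay wholly within 1 block of a DP peak for 112 starts in 106 peaks, of which 4 passed: the 5' UTR peaks of Ube2m, Bcl11b and Hmgn1, which were lower, and a peak at the start of Malat1, which was higher. The motifs searched were GGAC, then GAAC with A in the second place, then AGAC with A in the first, and last AAAC with A in both, on the transcript strand only; neighbouring matches may overlap. At least 1 of the 4 motifs stood in 47.3% of the starts within peaks and in 50.8% of all 32851 starts of the table. GGAC alone stood in 26.8% of starts within peaks and in 18.9% of all starts, and AGAC in 18.75% and 17.4%. The other motifs were rarer within peaks, GAAC with 8.93% against 14.6% and AAAC with 4.46% against 12.9%. A start within more than 1 peak was counted once for each. All starts take in genes without a peak, and base composition and expression were not matched. Of the 4 passing starts, Ube2m alone held 1 of the 4 motifs, and for the others this says only that these letters are not in the window read. The sites below are shown for Ube2m, the passing peak, and for some members of the gene family lists counted further on. The starts of these members lie in peaks that did not pass, and not all of their families are described. They were chosen after their values were seen. Each is 21 bases, written as DNA 5' to 3' on the transcript strand, from RefSeq on GRCm38.p6, with the motif in capitals.
Ube2m: gcacctccGAACacacccgag
Syncrip: gaaggaaGGACgaaggctgag
Ep300: aaggaggaGGACagcgccgag
Dusp1: agtgaaGGACtggcgggagga
Sf3a3: ccgccttgAAACgccgtggcc
Ddx27: ggagctcggcttcatccGGAC

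The Ube2m site lies at chr7:13037934-13037954 on the minus strand, in the 5' UTR of a gene that encodes the conjugating enzyme of the ubiquitin-like protein Nedd8. Its 300 nt peak was enriched 2.48-fold over input and stood at -0.484 on the log2 scale (FDR 0.0407) in the authors' deposited table. Syncrip, which encodes an hnRNP, has the site shown at chr9:88482377-88482397 on the minus strand and a second GGAC further on, in a 5' UTR peak that stood at 0.382 (FDR 0.465) in the authors' deposited table. Ep300, which encodes a histone acetyltransferase, has its site at chr15:81586215-81586235 on the plus strand, and its 5' UTR peak stood at -0.198 (FDR 0.64) in the authors' deposited table. Dusp1, which encodes a phosphatase of MAP kinases, has its site at chr17:26508452-26508472 on the minus strand, in a 121 nt peak that stood at 2.46 and did not pass (FDR 0.44) in the authors' deposited table. Sf3a3, of the spliceosome, has the AAAC shown at chr4:124714866-124714886 and Ddx27, a helicase gene, its GGAC at chr2:167015342-167015362, both on the plus strand, in peaks at -0.112 (FDR 0.646) and 0.052 (FDR 0.653) in the authors' deposited table. Ube2m was shown because its peak passed, and the others were taken from peaks that did not. The 6 sites therefore cannot show whether a motif goes with a change.

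The first comparison followed the annotation classes that the authors gave each peak. Peaks were divided almost evenly between exons outside the UTR classes, with 6169 peaks, and 3' UTRs, with 6119 peaks, and 5' UTRs held 1129. Lower peaks were mostly exonic and higher peaks mostly in 3' UTRs: 59 of the 100 lower peaks lay in the exon class against 45.9% of all peaks, and 38 of the 65 higher peaks lay in 3' UTRs, 58.5% against 45.5% of all peaks. In the exon class 59 peaks were lower and 16 higher, 0.956% and 0.259% of the class. In 3' UTRs 28 were lower and 38 higher, 0.458% and 0.621%. In 5' UTRs 13 were lower and 6 higher, 1.15% and 0.531%. The medians of the log2 fold change were close to 0 in all 3 classes, at -0.0359 in exons, 0.0285 in 3' UTRs and -0.00118 in 5' UTRs. Median fold enrichment was 4.43 in exons, 5.04 in 3' UTRs and 4.1 in 5' UTRs.

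Within the exon class lower and higher peaks differed by the position of the exon in its transcript. Internal exons held 3714 peaks, of which 54 were lower and 6 higher, 1.45% and 0.162% against 0.743% and 0.483% of all peaks. Last exons held 1516 peaks with 3 lower and 3 higher, 0.198% each. First exons held 428 peaks with 2 lower and 2 higher, 0.467% each. Single-exon transcripts held 511 peaks with 0 lower and 5 higher, 0.978%. Peaks that cross splice junctions, described next, made up 48.8% of internal-exon peaks and 33.9% of first-exon peaks. In last exons and single-exon transcripts they made up 4.95% and 6.07%. Exon position was not separated from junctions. Internal exons also had the lowest median enrichment of these positions, 3.68, and a median log2 fold change of -0.0562. Lower internal-exon peaks included Dhx16, an RNA helicase of the spliceosome (-0.613, FDR 8.13e-06), and Caprin1, an RNA-binding protein of stress granules (-0.543, FDR 0.000447), in the authors' deposited table. Higher peaks of last exons included Rag1, a subunit of the recombinase that cuts antigen receptor genes (0.151, FDR 3.72e-05), and the Golgi protein gene Gcc1 (1.28, FDR 0.00759), in the authors' deposited table. Introns held 5 peaks, none of which passed, and intergenic regions held 15, of which 1 was higher.

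Each peak is made of 1 or more exon blocks, and a peak of several blocks crosses splice junctions of the mature transcript. Peaks within 1 block numbered 9541, and 3909 peaks, 29.1%, crossed at least 1 junction. Block number separated lower from higher peaks more widely than annotation class did. Of the 100 lower peaks, 82 crossed a junction, against 17 of the 65 higher peaks, or 26.2%. The share of peaks that were lower was 0.189% with 1 block (18 peaks), 0.788% with 2 blocks (17 peaks), 2.15% with 3 blocks (19 peaks) and 5.28% with 4 or more blocks (46 peaks). The share that were higher stayed between 0.325% and 0.689% in the same 4 groups, with 48, 7, 4 and 6 peaks.

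**Figure D1:**
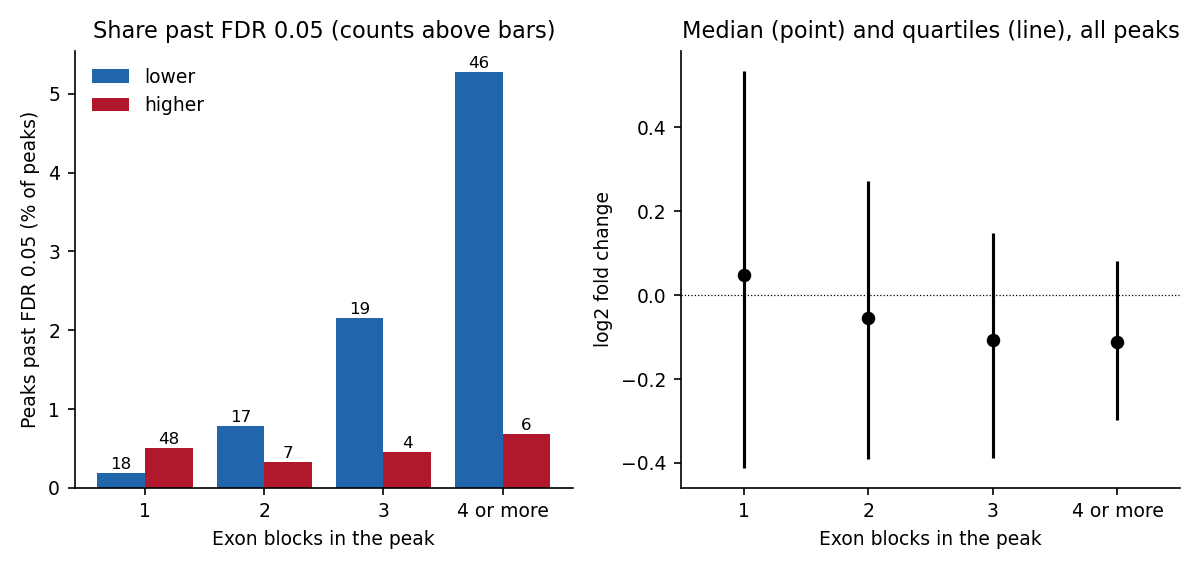
Left, the share of DP peaks past an FDR of 0.05 (percent of peaks) against the number of exon blocks in the peak, lower in blue and higher in red, with the number of peaks above each bar; right, the median (point) and quartiles (line) of the log2 fold change of all peaks in the same groups. The lower share climbs from 0.189% to 5.28% while the higher share stays at or under 0.689%, and the median passes from 0.0484 with 1 block to -0.112 with 4 or more.

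The values of all peaks had the same order. The median log2 fold change was 0.0484 for peaks within 1 block, -0.0534 with 2 blocks, -0.1065 with 3 and -0.112 with 4 or more, and the share of negative values went from 46.2% to 55.0%, 60.2% and 64.8%. The spread narrowed at the same time, with a standard deviation over peaks of 0.902 for 1 block and 0.416 for 4 or more. Ezr, the linker of membrane and actin, had a lower peak over 9 blocks and 1376 nt (-0.204, FDR 5.13e-08) in the authors' deposited table. Ppp1r9b, a scaffold of protein phosphatase 1, had one over 9 blocks (-0.299, FDR 6.76e-06) and Sart1, a component of the tri-snRNP, one over 8 blocks (-0.381, FDR 0.00813) in the authors' deposited table. Among higher peaks, Supt5, an elongation factor of RNA polymerase II, had the most blocks, 6 (0.339, FDR 0.00813), in the authors' deposited table.

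The excess of lower peaks across junctions was present in each annotation class. Across junctions, 10 peaks were lower and 3 higher in 5' UTRs, 49 and 6 in exons, and 23 and 8 in 3' UTRs. Within 1 block the counts were 3 and 3 in 5' UTRs, 10 and 10 in exons, and 5 and 30 in 3' UTRs. In 3' UTRs the lower share was 0.104% within 1 block and 1.76% across junctions, while the higher share was 0.624% and 0.612%, so only the lower share differed widely between them. A peak with several blocks takes the class of 1 of its parts, so a junction-crossing peak called 3' UTR reaches into coding exons or across UTR introns.

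**Figure D2:**
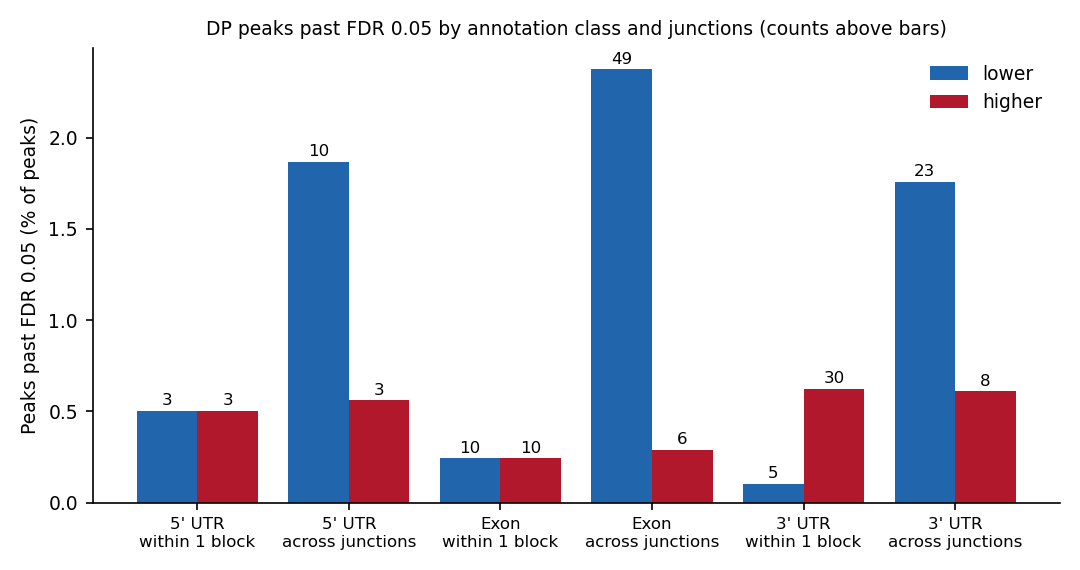
The share of DP peaks past an FDR of 0.05 (percent of peaks, vertical axis) for the 3 main annotation classes, split into peaks within 1 block and peaks across junctions; lower in blue, higher in red, number of peaks above each bar. Lower bars are tall across junctions in all 3 classes (10, 49 and 23 peaks), while the higher bars of 3' UTRs are of like height within 1 block (0.624%) and across junctions (0.612%).

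Junction-crossing peaks were longer in exonic bases, and length was therefore held within 4 bins. In the bin of 254 to 419 nt, 27 of 1133 junction-crossing peaks were lower and 3 higher, against 8 and 13 of 2277 peaks within 1 block. In the bin of 420 nt and more, 48 of 1423 were lower and 14 higher across junctions, against 6 and 31 of 1883 within 1 block. From 167 to 241 nt the counts were 7 and 0 of 790 across junctions and 4 and 3 of 2238 within 1 block. At 151 nt or less 1 peak passed in all, a higher one. Both directions were thus found in longer peaks, with a median exonic length of 435 nt for lower peaks and 540 nt for higher peaks against 241 nt for all peaks, and the split by junctions was present within each of the 3 upper bins.

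Fold enrichment over input gave a second split. Lower peaks were weakly enriched, with a median of 2.53 against 4.7 for all peaks, and higher peaks were near the middle, with a median of 4.82. At or under the overall median lay 88 of 100 lower peaks, and 31 of 65 higher ones. Peaks were also ranked by enrichment in 5 groups. In the lowest group, up to 2.58, lay 54 lower and 9 higher peaks. In the highest, above 10.6, lay 0 lower and 8 higher peaks of 2673. The most enriched lower peaks were those of Nipbl, the loader of cohesin (10.3-fold over input), Fbxo38 (9.65-fold) and Spen, a transcriptional corepressor that binds RNA (9.47-fold), in the authors' deposited table. The least enriched lower peaks lay in Raly (1.28-fold, named Eif2s2), Rpl12 (1.29-fold), Calm3 (1.35-fold) and Myb (1.37-fold) in the authors' deposited table.

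**Figure D3:**
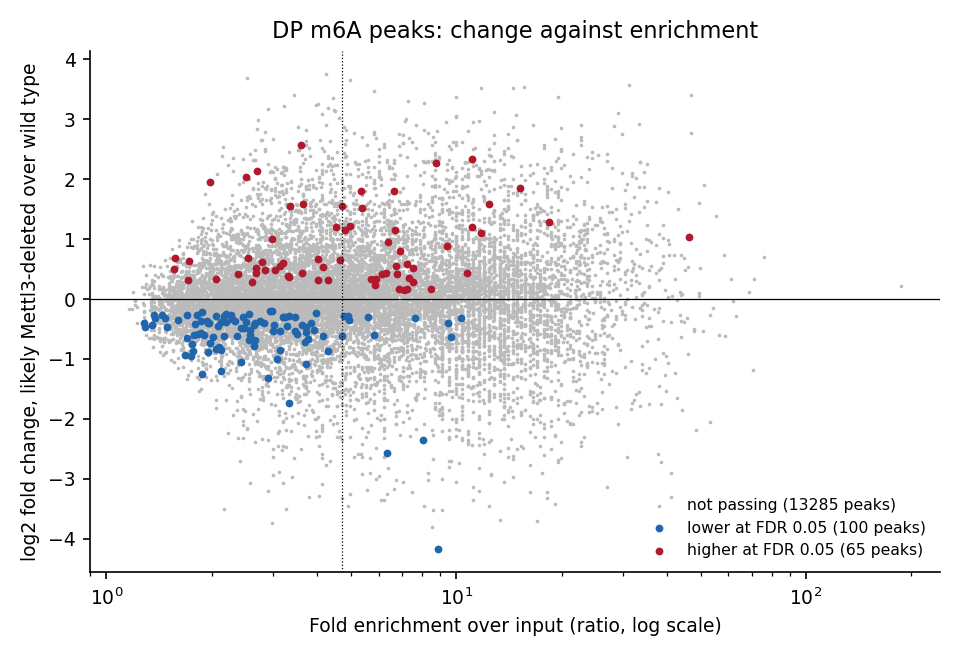
The log2 fold change of each of the 13450 DP peaks (vertical axis) against its fold enrichment over input (ratio, log scale), with lower peaks at an FDR of 0.05 in blue, higher peaks in red and the rest in grey; the dotted line is the median enrichment, 4.7. Blue points crowd to the left, 88 of 100 at or under the median and 0 above 10.6, while red points spread over both sides.

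Over all peaks the medians were lowest at weak enrichment, with no steady order above it. With 10 groups, the lowest, 1.16 to 2.06, had a median log2 fold change of -0.108 with 60.4% of peaks negative. The median was 0 in group 4, 0.071 in group 7, 0 in group 9 and, in the highest, 14.8 to 187, 0.0631 with 46.3% negative. Junctions and enrichment, in 5 groups, were then crossed. In the lowest group of enrichment, 44 of 1119 junction-crossing peaks were lower and 2 higher, and in the next 26 of 884 were lower and 3 higher. In the middle group the counts were 7 lower and 6 higher of 816, in the next 5 and 4 of 657, and in the highest 0 and 2 of 433. The excess of lower over higher peaks across junctions was thus widest in the weakly enriched peaks, up to 3.81-fold.

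Passing peaks were mostly those with the smallest peak p-values. Peaks were ranked by the authors' peak p-value in 10 groups. In the strongest group 84 of 1345 peaks passed, 6.25%, with 47 lower and 37 higher. In the weakest groups, 0 of 1343 and 0 of 1301 passed. The standard deviation of the log2 fold change over peaks was 0.300 in the strongest group and 0.937 and 0.996 in these weakest ones. Passing peaks thus included small changes. The smallest passing change was the 0.151 of Rag1 over 2064 nt, and Cd247, the zeta chain of the T cell receptor complex, gave its name to a peak in Pou2f1 with -3.8 that did not pass (FDR 0.118), both in the authors' deposited table.

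None of the 10 most enriched peaks passed. The highest, 187-fold over input, lay in Gpatch4 (named Naxe) at 0.213 on the log2 scale, followed by Cytip at 75.8-fold with 0.706 and Rnf103 at 71.1-fold with 0.337, in the authors' deposited table. Of the 10 longest peaks, Spen alone passed (3328 nt, -0.405, FDR 0.00105) in the authors' deposited table. The longest covered 8354 nt of Mki67, the proliferation marker, and stood at -0.0551 in the authors' deposited table, and the next longest, in Plec and Cenpe, had -0.146 and -0.162 there.

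Gene families were then described by their peaks, from 53 lists of gene names. Of all 6618 genes, 95 had a lower peak, 1.44%, and 58 had a higher peak, 0.876%. Lower peaks were found in 21 of the 53 families and higher peaks in 15, and 23 families had neither. Families overlap, and a family of few genes moves by a large percentage with 1 gene, so the shares below are descriptions. Members are counted by the annotated name.

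Of 5 lists of RNA-binding and splicing genes, 3 held lower peaks, and by annotated name none of the 5 held a higher one. Among hnRNPs, which coat nascent transcripts, 4 of 23 genes had a lower peak, Hnrnpu, Hnrnpdl, Hnrnpf and Hnrnpll, with 6 lower peaks of 58, or 10.3% against 0.743% of all peaks. Hnrnpu, which binds RNA and chromatin, had 3 of them, at -0.221 in the 5' UTR (FDR 0.00055), -0.381 (FDR 0.00417) and -0.428 (FDR 0.00245), in the authors' deposited table. Its other 4 peaks had values of -0.376, -0.322, 0.168 and, for a peak that lay in Cox20, -1.58 in the authors' deposited table, so 6 of its 7 peaks were negative. Hnrnpll, which directs splicing of Ptprc in lymphocytes, had 1 lower peak, in its 5' UTR (-0.368, FDR 0.0282), in the authors' deposited table. The remaining hnRNP peaks held both signs, with Hnrnpa2b1, also known as an m6A reader, at -0.127, 0.0483 and 0.208 in the authors' deposited table; it was named after its values were seen.

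DEAD and DEAH box helicases, which remodel RNA, had lower peaks in 3 of 39 genes, Dhx16, Ddx54 (-0.361, FDR 0.00912) and Ddx23 (-0.583, FDR 0.0129), in the authors' deposited table. Spliceosome components had them in 2 of 40 genes, Sf3b2 (-0.342, FDR 0.00263) and Prpf4b (-0.447, FDR 0.00955), in the authors' deposited table. A second lower peak in Sf3b2, named Pacs1, had -0.262 (FDR 0.0263) in the authors' deposited table. Rbm proteins, with 28 genes and 78 peaks, and SR proteins, with 12 genes and 35 peaks, had no passing peak, and their medians were 0.0516 and 0.0767. Over the 5 lists together, 11 of 321 peaks in 140 genes were lower and 0 higher, 3.43% against 0.743% of all peaks. Junction-crossing peaks made up 46.4% of these 321 peaks, against 29.1% of all peaks. Across junctions 8 of 149 were lower, 5.37% against 2.10% of all junction-crossing peaks, and within 1 block 3 of 172, 1.74% against 0.189% of all such peaks. Outside the lists, passing peaks in genes of RNA biology had both directions. Nono (-0.272) and Sfpq (-0.345), partners in paraspeckles, had a lower peak in the authors' deposited table. Ncl (0.165, named Snord82) and Clk3, a kinase of splicing factors (0.363 and 0.378), had higher ones there. Further lower peaks lay in Sart1, Caprin1, Sf1, Son, Acin1, Ybx1 and Serbp1, and further higher ones in Toe1 and Sde2. All of these were picked by eye after their values were seen. Such genes were not counted, so the picks do not give the balance of the directions.

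By annotated name, lower peaks without higher ones were also found in the lists of chaperones, the cell cycle, small nuclear proteins, ribosomal proteins and phosphatases. In this order, 3.09%, 3.90%, 12.5%, 4.88% and 2.4% of their peaks were lower, against 0.743% of all peaks. Junction-crossing peaks made up 48.5%, 50%, 79.2%, 31.7% and 38.4% of their peaks, against 29.1% of all peaks. Their median enrichment was 4.22, 4.385, 2.115, 2.65 and 3.98, against 4.7. Family was not separated from junctions or enrichment. Heat shock chaperones had 3 lower peaks in 47 genes, Hsp90ab1 (-0.264, FDR 1.38e-06), Dnaja1 (-1.06, FDR 0.01) and Hspa8 (-0.422, FDR 0.0302), in the authors' deposited table. Genes of the cell cycle, replication and repair had 6 in 80 genes. Mcm2, a subunit of the replicative helicase, had -0.616 (FDR 0.00977) and Rad21, a cohesin subunit, had -0.38 (FDR 0.0302) in the authors' deposited table. Atad5, Cdc37, Cdc5l and Tlk2 made up the rest. The list goes by gene names, and Cdc37 encodes a co-chaperone and Cdc5l a spliceosome protein. Neither was counted in the chaperone or spliceosome list. The median over all 154 peaks of this family was -0.14, with 64.3% negative. Chromatin remodellers of the BAF and related complexes had 1 peak in each direction among 114, the lower one in Smarca4 (-0.205, FDR 0.0263) and the higher one in Arid1a (0.546, FDR 0.00174), in the authors' deposited table. Small nuclear acidic and high-mobility-group proteins had 3 lower peaks in 2 of 13 genes, and by position 1 higher peak also lay in a gene of this list. The lower ones were in Hmga1 (-0.629, FDR 0.000912) and Hmgn1 (-0.563 and -0.857), in the authors' deposited table. Ribosomal proteins had 2 in 29 genes, Rpl19 (-0.321, FDR 4.37e-08) and Rpl12 (-0.471, FDR 0.0229), in the authors' deposited table, and 65.9% of their 41 peaks were negative. Protein phosphatases had 3 in 56 genes, Ppp1r9b, Ppp1r12a (-0.83) and Ptpra (-0.892), in the authors' deposited table.

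**Figure D4:**
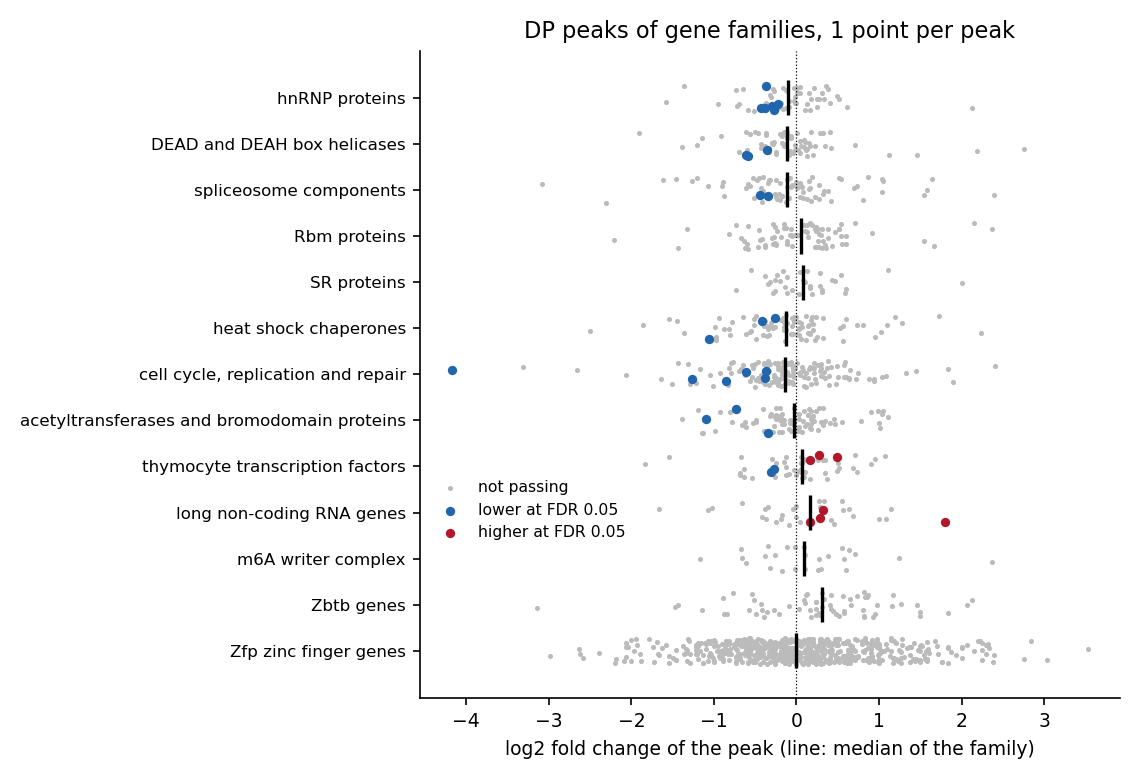
Each point is a DP peak of the family named on the left, placed by its log2 fold change (horizontal axis; vertical scatter within a row has no meaning), with lower peaks at an FDR of 0.05 in blue, higher in red, others in grey, and a black line at the family's median. Blue points appear in the hnRNP, helicase, spliceosome, chaperone, cell cycle, acetyltransferase and transcription factor rows. Red ones appear in the rows of transcription factors, which hold both colours, and of long non-coding RNAs. The Zfp row has neither among 619 peaks.

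Thymocyte transcription factors changed in both directions. Of 22 genes with peaks, Bcl11b and Myb had a lower peak and Bcl11b, Satb1 and Sox4 a higher one, 5 of 54 peaks. Sox4, an HMG-box factor, had a higher peak at its 5' UTR (0.485, FDR 0.000214), and its other 4 peaks had values from 0.0572 to 0.245 in the authors' deposited table. Bcl11b, needed for T lineage commitment, had its lower peak over 2 blocks at the 5' UTR (-0.304, FDR 0.0324) and its higher peak over 2096 nt of the 3' UTR (0.276, FDR 0.000182) in the authors' deposited table. Its 3 other 3' UTR peaks had 0.947, -0.542 and -0.678 there and did not pass, so their mixed signs do not show that sites of 1 UTR differ. Egr1, an early gene of antigen signalling, had an exon peak just outside the threshold (0.69, FDR 0.0513) in the authors' deposited table. Il2rg, the common cytokine receptor chain, had the 1 lower peak of 64 in the cytokine receptor list (-0.589, FDR 0.0468) in the authors' deposited table. Coreceptors and surface molecules had none of 51.

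Long non-coding RNAs had higher peaks only, 4 of 33, in Malat1 and Tug1. On Malat1, an abundant nuclear RNA, overlapping minus-strand peaks of 1619 nt and 714 nt had 0.168 (FDR 5.75e-06) and 0.325 (FDR 4.07e-06) in the authors' deposited table, and the third lay on the opposite strand over the same bases (0.288, FDR 0.002). Neat1, which scaffolds paraspeckles, had 7 peaks from -0.664 to 0.333 in the authors' deposited table and none passed; it too was picked after its values were seen.

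Several large families held no passing peak by annotated name; by position, 1 higher peak each lay in genes of the Zfp and histone methyltransferase lists. Zfp zinc finger genes had 0 of 619 peaks in 218 genes, with a median of 0, a median enrichment of 8.29 and 7.27% of peaks across junctions. Zbtb genes had 0 of 66 peaks in 27 genes, with a median of 0.31 and 28.8% negative. Histone methyltransferases had 0 of 131 peaks in 29 genes and histone demethylases 0 of 66 in 21 genes, with medians of 0.069 and -0.139. Mitochondrial ribosomal proteins had 0 of 44 peaks and a median of -0.187. With 1.23% of all peaks passing, a list of 26 or 66 peaks can hold none without standing apart. The m6A machinery is given for its values. Writer subunits had 0 of 26 peaks in 7 genes: Mettl14 had 1 peak at -0.323 (FDR 0.624), and the 2 peaks of Wtap had -0.656 (FDR 0.123) and -1.17 (FDR 0.501), by the authors' deposited table. For readers and erasers the count was 0 of 20 peaks in 8 genes, with Ythdf2 at -0.0227 and -0.332, Alkbh5 at 1.14 and Fto at 0.9 there.

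Among higher peaks, those with the smallest FDRs lay in mitochondrial RNA. The mitochondrial genome held 13 peaks, to which the authors' annotation gave no gene, and 4 were higher, 30.8% against 0.483% of all peaks, and 0 lower. By RefSeq spans they lay in ND6 on the minus strand (1.2, FDR 6.31e-18), ND5 (0.519, FDR 6.31e-16), CYTB (0.477, FDR 8.51e-09) and ND4 (0.314, FDR 0.0282), in the authors' deposited table. These genes encode subunits of respiratory complexes. The ND6 peak overlaps the end of the ND5 peak on the opposite strand. Of the 13 peaks, 10 were positive, and the 3 negative ones, from -0.0395 to -0.177 in the authors' deposited table, lay towards the start of the numbering. In iNKT cells 9 mitochondrial peaks were listed, of which 3 were higher and 1 lower against 5.84% and 19.8% of all iNKT peaks. Over the 20 nuclear chromosomes compared, median log2 fold changes ran from -0.0566 to 0.0488 and the share passing from 0.358% to 2.20%. Lower peaks outnumbered higher ones on 12 chromosomes, were fewer on 4 and equal on 4. Chromosome 16 had 6 lower and 0 higher, and chromosome 17 had 10 and 2.

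Signs were then compared within genes. Of 3355 genes with 2 or more peaks, 2079, or 62.0%, had peaks of both signs. With 49.7% of all peaks negative, unlinked signs would also give many such genes. The share alone therefore does not show that peaks of 1 gene disagree. Several passing peaks were found in 6 genes: Hnrnpu, Myh9 and Hmgn1 with lower ones, Malat1 and Clk3 with higher ones, and Bcl11b with 1 of each. The Clk3 peaks share bases on opposite strands and the Malat1 peaks overlap one another, so within each gene these are not separate sites. Myh9, a non-muscle myosin heavy chain, had 3 lower peaks on neighbouring stretches of internal exons, with -0.522, -0.249 and -0.244 in the authors' deposited table. Hmgn1, a nucleosome-binding protein, had both of its peaks lower. The 95 genes with a lower peak had 223 further peaks that did not pass and did not overlap a passing one, and 64.1% of these were negative against 49.7% of all peaks. Across junctions the share was 75.7% of 111 peaks, against 58.3% of all junction-crossing peaks. Within 1 block it was 52.7% of 112, against 46.2% of all such peaks. The 58 genes with a higher peak had 103 such peaks, with 46.6% negative. Among genes with most peaks, Macf1, a linker of actin and microtubules, had 22 peaks, of which 13 were negative and 1 was lower. Cntrl, a centriolar protein, had 10 negative peaks of 10, of which 1 was lower, and Myo18a had 10 negative of 11 and none passed.

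Peaks on opposite strands of the same bases gave a second view of the values. There were 377 such pairs among 726 peaks, 5.40% of the table, including 14 passing peaks. In the 320 pairs that shared at least 50% of the shorter peak, 278 had the same sign, and the log2 fold changes had a Pearson r of 0.884 and a Spearman rho of 0.848 across pairs, with a median absolute difference of 0.0995. The members of a pair come from the same libraries and may share fragments, so this is a description with no test. Clk3 was higher on both strands (0.363 and 0.378). Hs6st1, an enzyme of heparan sulfate modification, passed on the plus strand (1.22) and did not on the minus strand (0.567), all in the authors' deposited table.

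The DP peaks were last set beside the iNKT table, in which 25.7% of 12542 peaks passed, 19.8% lower and 5.84% higher. Standard m6A-seq and m6A-LACE-seq for scarce RNA are both named in the labels, which do not say which cells were handled by which, so cell type and protocol cannot be told apart. A match needed 1 or more exonic bases in common and the same strand. Of all DP peaks, 4898 matched an iNKT peak, 36.4%, and 39.5% of the matches were lower in iNKT cells. Lower DP peaks matched in 37 of 100, and 28 of the 37, or 75.7%, were lower in iNKT cells. Of the matched DP peaks across junctions, 59.7% were lower in iNKT cells, and of the lower DP peaks among them 78.1%. Higher DP peaks matched more often, in 56 of 65, and 34 of the 56, or 60.7%, were lower in iNKT cells, with 6 higher. The log2 fold changes of matched peaks had a Pearson r of -0.00269 and a Spearman rho of 0.0104 across 4898 peaks.

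**Figure D5:**
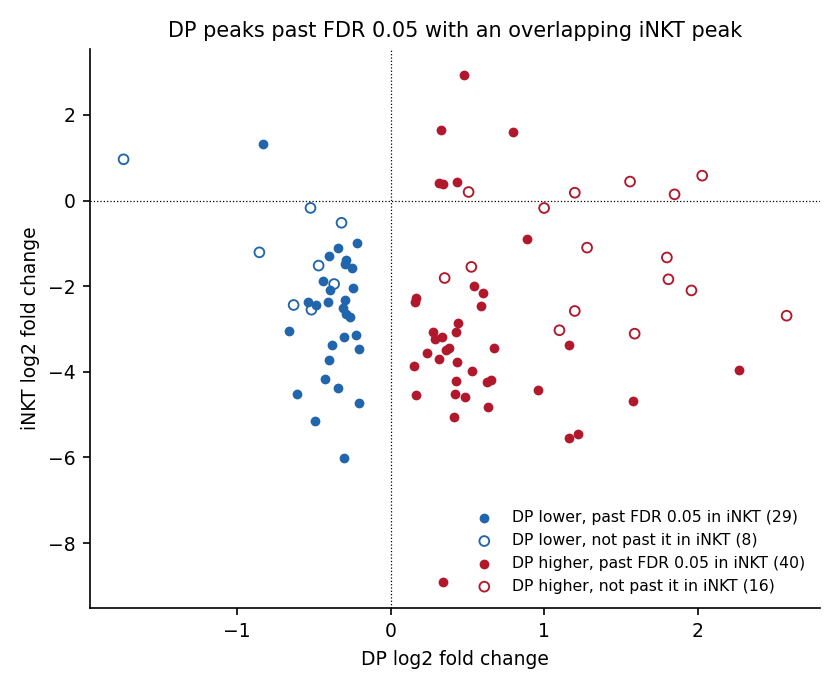
Log2 fold change in iNKT cells (vertical axis) against that in DP cells (horizontal axis) for the passing DP peaks with an overlapping iNKT peak, 37 lower in blue and 56 higher in red; filled points also passed in iNKT cells, open ones did not. Both colours lie mostly under the horizontal zero line, with 28 lower and 34 higher DP peaks lower in iNKT cells.

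Named peaks showed the same contrast, though a match could be partial. The iNKT peak covered 14.5% of the DP peak of Rag1, 60.6% of that of Satb1, 47.5% of that of Supt5 and 17.4% of that of Ezr. Rag1 and Satb1, higher in DP cells by 0.151 and 0.161, had iNKT values of -3.87 (FDR 3.16e-17) and -2.38 (FDR 1e-315) in the authors' deposited tables. Supt5, higher in DP cells by 0.339, had -8.92 (FDR 1e-199) among iNKT peaks of the authors' deposited table. Tmsb4x, a binder of actin monomers, and Gnai2, a G protein alpha subunit, were higher in both, at 0.339 and 0.431 in DP cells and 0.393 and 0.436 in iNKT cells, in the authors' deposited tables. Hsp90ab1 and Ezr were lower in both, with -2.71 and -4.72 among iNKT peaks in the authors' deposited table, while Ppp1r12a was lower in DP cells and higher in iNKT cells (1.31, FDR 6.61e-05). The split by junctions was also counted: among iNKT peaks, 26.1% of 2488 lower ones crossed junctions and 25.2% of 733 higher ones crossed junctions, against 82% and 26.2% in DP cells. Over all peaks, 1904 of 12542 crossed junctions in iNKT cells and 3909 of 13450, or 29.1%, in DP cells, so both iNKT shares lay above their background and the higher DP share below its own. The difference between the cell types was not tested.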

How the data were processed

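m6A in DP thymocytes was read from 1 peak table, deposited for a design with 2 input and 2 m6A libraries per genotype; how the authors combined them is not stated. The build was mm10, and HOMER 4.9.1, STAR 2.6.0a, FastQC 0.11.5, RSEM 1.3.0 and Trim Galore 0.6.5 were used, per the submitters' processing notes; the peak caller is not given in the sources used here, though the column names are those of exomePeak. Per the file headers, the deposited table gives a peak p-value, a fold enrichment (linear ratio), a log2 fold change, and log10 p and FDR values, treated as scores. Whether these p-values take in variation between mice is unknown. The depth of the libraries is unknown.

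Repeated rows were dropped and peaks were counted at an FDR of 0.05 by sign; no test was added. Peaks were matched by shared exonic bases, in Python 3.11.15 with numpy 2.4.6 and pandas 2.3.3 (plots: matplotlib 3.10.9), and the matching, counting and adjustment code was tested on simulated data. Gene spans, strands and start sequences came from RefSeq on GRCm38.p6. Named peaks were those that passed, the 10 most enriched, the 10 longest, those of the 10 genes with most peaks, the smallest FDR of each list, other peaks of these genes, and members of the writer, reader, recombination, transcription factor, T cell receptor and marker lists; exceptions are marked as chosen after their values were seen. The members and the gene lists were chosen with earlier results of these data known. Alternatives were another FDR, a minimum change or enrichment, 1-block peaks, 1 peak per gene, left-out chromosomes and stricter matching. Some results are not reported here.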

Additional observations from a re-analysis of the deposited data

How the results depend on the processing

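Of 53 values recomputed for 10 results, 38 stayed near the reported value and 15 moved. Near meant within 1.5 times for counts, and inside the 95% exact binomial or ranked-value interval for shares and medians. Counts and shares cannot change sign, so a change of sign was not assessed. The balance of lower over higher peaks turned in the 2 cases named below. The lower and higher counts, 100 and 65, were 40 and 26 at an FDR of 0.01, 168 and 111 at 0.1, and 10 and 23 with at least a 2-fold change. Lower peaks numbered 18 within 1 block and 56 with 1 peak per gene, and higher peaks numbered 48 and 50. These alternatives keep fewer peaks, 9541 and 6643, but lower peaks fell by more than higher ones in both. With a 2-fold minimum, or with 1-block peaks alone (18 against 48), higher peaks outnumbered lower ones. The median log2 fold change, 0, was 0.00384 at an enrichment of at least 2, 0.0484 within 1 block and 0.00559 with 1 peak per gene. The share of lower peaks across junctions, 82%, was 63.6% in the bin of 167 to 241 nt, and that of higher peaks, 26.2%, was 0% in the lowest bin (1 peak) and 0% in the next (3 peaks). With at least 50% of the DP peak shared, 4 lower DP peaks matched, and 100% of them were lower in iNKT cells. Leaving out chromosome 1, 6, 11 or 17, with 12 passing peaks each, the mitochondrial genome, or 1 peak of each opposite-strand pair moved no count by more than 1.5 times; the last 2 of these, and the junction shares over peaks whose named gene lies there (81.7% and 37.5%), were added after seeing the data. No paired analysis was possible because the table holds no values per library, and leaving out each replicate was not run for the same reason. Without depth, a peak that did not pass cannot be called unchanged.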
